A study of Populus tremula x Populus alba with 7 samples.

Results

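The ChIP-seq peak lists of the transcription factors (TFs) PtrNAC127 and PtrCORONA were set side by side, and peaks that shared at least 1 bp were paired. Every peak of both lists was taken, 681 of PtrNAC127 and 1159 of PtrCORONA, together 1840 of the 9442 peaks in the 6 lists of the series. Each list came from 1 library of leaf chromatin of the poplar hybrid Populus tremula × alba. Whole plants from tissue culture had been infiltrated with Agrobacterium to express the TF fused to green fluorescent protein (GFP) under the CaMV35S promoter. Leaf tissue was then harvested, and its chromatin was precipitated with a GFP monoclonal antibody. The same fusion, tissue and antibody were used for the other 4 TFs, PtrC2H2ZF1, PtrC2H2ZF2, PtrARF5a and PtrBLH. The labels hold 1 input sample, chromatin without the antibody step, so the lists share their control as far as the labels show. The CaMV35S promoter drives a TF in most plant cells, so the lists describe an overexpressed protein in leaf and not the native protein in wood-forming tissue. With 1 library for each TF there was no replicate error and no test, and a difference that belongs to a TF cannot be told apart from one that belongs to its library.

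NAC proteins are a plant-specific TF family with a conserved DNA-binding domain at the N-terminal end, and several members switch on secondary cell wall formation in vessels and fibres. PtrCORONA belongs to the class III homeodomain-leucine zipper family, whose Arabidopsis members act in vascular patterning, in the shoot meristem and in leaf polarity. A TF that contacts DNA, directly or through a partner, is crosslinked to it, and the precipitated fragments pile up into a peak whose highest point, the summit, lies near the contact.

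The constructs differed in the coding sequence placed before GFP, and the cloning primers show where each coding sequence began and ended. Capitals mark the bases added in front of the start codon, an XbaI or SpeI site, and in the reverse primers the shared tail that holds the AscI site used to join GFP.
PtrNAC127-Fwd-XbaI: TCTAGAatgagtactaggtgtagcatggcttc
PtrNAC127-Rvs-AscI: GGCGCGCCAcccatgatgatcctggttgcc
PtrCORONA-Fwd-SpeI: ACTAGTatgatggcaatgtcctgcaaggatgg
PtrCORONA-Rvs-AscI: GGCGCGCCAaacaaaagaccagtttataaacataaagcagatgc
Both coding sequences kept their own start codon and were joined to GFP at the 3′ end, so the antibody reached each TF through the same tag.

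Nearly the whole PtrNAC127 list lay inside the PtrCORONA list, which held many further, mostly weak, peaks. Of the PtrNAC127 peaks, 632 of 681 met a PtrCORONA peak (92.8%, exact 95% binomial interval 90.6 to 94.6%), and of the PtrCORONA peaks 631 of 1159 met a PtrNAC127 peak (54.4%, interval 51.5 to 57.3%). These intervals, like the others given for shares, cover counting error only. The overlap formed 633 pairs, and in 627 of them each peak met no other peak of the opposite list. Left without a partner were 49 PtrNAC127 peaks and 528 PtrCORONA peaks. Wide overlap with the PtrNAC127 list was not particular to PtrCORONA. PtrNAC127 formed 620 one-to-one pairs with PtrARF5a, 554 with PtrC2H2ZF2, 536 with PtrC2H2ZF1 and 534 with PtrBLH.

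Each peak carries a fold enrichment over the input and the −log10 of a q-value, both given by the peak caller. Since the fold enrichment of 1 library has no common scale with that of another, peaks were ranked within their own list, with rank 1 for the largest value. Paired PtrNAC127 peaks had a median −log10 q of 64.7, and unpaired ones 10.7. Paired PtrCORONA peaks had a median −log10 q of 71.0, and unpaired ones 7.28. The median fold enrichment was 11.8 for paired and 8.36 for unpaired PtrNAC127 peaks, and 13.96 for paired and 6.18 for unpaired PtrCORONA peaks. In both lists the unpaired peaks thus sat at the weak end.

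**Figure D1:**
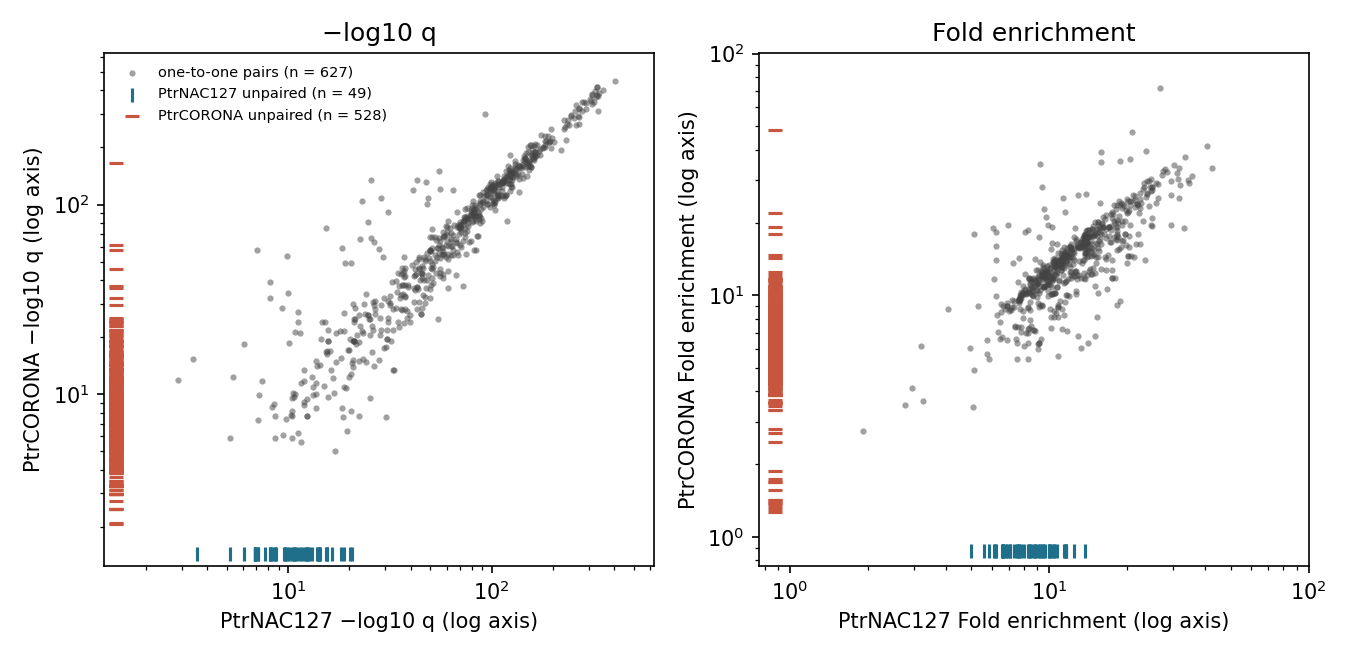
−log10 q (left) and fold enrichment (right) of the 627 one-to-one pairs, PtrNAC127 on the x axis and PtrCORONA on the y axis, both log axes; ticks along the axes mark the 49 unpaired PtrNAC127 and the 528 unpaired PtrCORONA peaks at their own values. The unpaired PtrNAC127 ticks end at a −log10 q of 20.6, while 1 PtrCORONA tick stands alone at 166.3.

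The plot of pair values shows a narrow band of −log10 q at the strong end that widens toward the weak end. The same pairs are more scattered by fold enrichment over the whole range.

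The summits of paired peaks lay close together. Across the 627 one-to-one pairs the summits were a median of 6 bp apart, with quartiles of 2 and 12 bp. They were within 5 bp in 297 pairs, within 10 bp in 433 pairs (69.1%, interval 65.3 to 72.7%) and within 100 bp in 605 pairs (96.5%, interval 94.7 to 97.8%). The summits coincided in 24 pairs and lay over 200 bp apart in 8 pairs. The offset had no preferred side. The PtrNAC127 summit had the larger coordinate in 305 pairs and the smaller one in 298, and the median of the signed offset was 0 bp. Close summits were not particular to these 2 lists. One-to-one pairs of PtrNAC127 with each other list, 620 of them with PtrARF5a, had a median summit distance of 8 or 9 bp. The median was also 6 bp for PtrC2H2ZF1 with PtrC2H2ZF2. The largest of any list pairing was 20 bp, for PtrARF5a with PtrBLH.

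The most distant summits were found in a broad pair and in weak pairs. The largest distance, 532 bp, was found at chr2:18349130-18354390 in the PtrNAC127 list, a peak of 5261 bp whose PtrCORONA partner was 5246 bp wide. Both were strong, with a −log10 q of 334.2 for PtrNAC127 and 312.7 for PtrCORONA. The next distances were 234 bp each, at chr8:17812699-17813270 and chr6:1674226-1674748, where −log10 q was 21.7 and 19.3 for PtrNAC127 and 20.4 and 10.8 for PtrCORONA. Pairs whose wider peak measured 500 to 600 bp, 350 in number, had a median summit distance of 5 bp. In the 14 pairs with a peak of 2000 bp or more the median was also 5 bp, but the spread was larger, with a 90th percentile of 162.7 bp against 16 bp in the 500 to 600 bp class. The 19 pairs under 400 bp had a median of 9 bp, the 31 of 400 to 500 bp a median of 4 bp, the 184 of 600 to 1000 bp a median of 8.5 bp and the 29 of 1000 to 2000 bp a median of 5 bp. Their 90th percentiles were, in that order, 95.6, 26, 48 and 44.6 bp, so the spread was also large in the narrowest class.

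**Figure D2:**
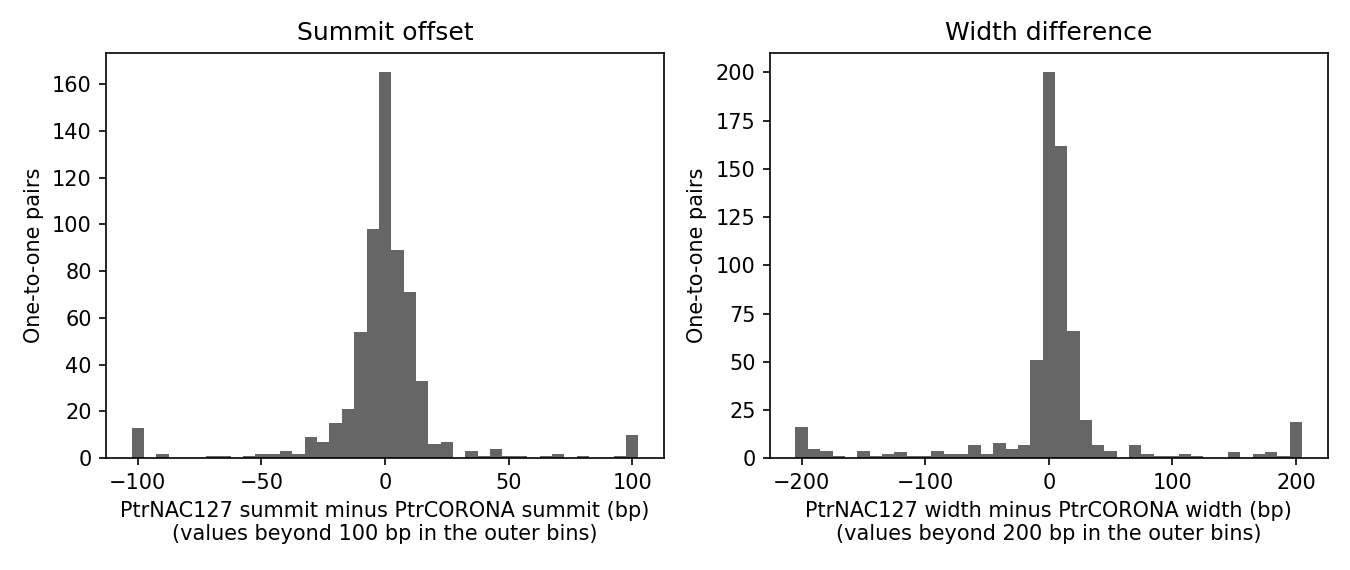
Summit offset (left) and width difference (right) of the 627 one-to-one pairs, PtrNAC127 minus PtrCORONA in bp, as counts of pairs per bin with values beyond the axis range in the outer bins. The offsets are centred on 0 bp, and the width differences have a median of 4 bp.

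Widths were nearly equal within pairs, with a slight excess on the PtrNAC127 side. The median width of one-to-one paired peaks was 546 bp for PtrNAC127 and 543 bp for PtrCORONA. The PtrNAC127 peak was the wider one in 400 pairs (63.8%, interval 59.9 to 67.6%), the narrower one in 203, and 24 pairs had equal widths. The median difference was 4 bp, and 467 pairs (74.5%) differed by at most 20 bp. The lists also differed in their narrowest unpaired peaks, which were 290 bp wide for PtrNAC127 and 288 bp for PtrCORONA. How far this enters the slight excess was not tested. The PtrCORONA peak lay wholly inside the PtrNAC127 peak in 274 pairs, and the PtrNAC127 peak inside the PtrCORONA peak in 115.

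Large width differences went both ways. The PtrNAC127 peak was at least 1.5 times as wide in 16 pairs, and the PtrCORONA peak in 19. The largest difference stood at chr1:1321795-1322442, where the PtrNAC127 peak was 648 bp wide and the PtrCORONA peak 1264 bp. Neighbouring pairs on chromosome 7 went the other way. At chr7:6127603-6129798 the PtrNAC127 peak was 2196 bp wide and the PtrCORONA peak 1738 bp, and at chr7:6125825-6127380 the widths were 1556 bp for PtrNAC127 and 1129 bp for PtrCORONA. In both, the summits of the lists were at most 2 bp apart.

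In 3 places the lists cut the same stretch differently, which accounts for the pairs that were not one-to-one. At chr15:6320750-6327919 PtrCORONA had 1 peak of 7170 bp with a −log10 q of 372.2, the widest in its list, while PtrNAC127 had 2 peaks there, with −log10 q of 319.3 and 235.4. The PtrCORONA summit was 10 bp from that of the first PtrNAC127 peak and 3388 bp from that of the second. At chr14:13421655-13423081 a single PtrCORONA peak (−log10 q 148.8) met PtrNAC127 peaks with −log10 q of 144.8 and 5.09. At chr8:5625851-5626550 it was PtrNAC127 that had a single peak (−log10 q 23.4), which met PtrCORONA peaks with −log10 q of 20.7 and 12.1.

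The 5 pairs with the best mean rank by −log10 q were chosen for standing high in both lists, so their ranks are a description. The pair at chr5:24527731-24528913 was first by −log10 q in each, with 402.4 for PtrNAC127 and 449.8 for PtrCORONA. The others were chr3:19528565-19529515 (rank 2 for PtrNAC127 and 4 for PtrCORONA), chr2:18359118-18363730 (6 for PtrNAC127 and 3 for PtrCORONA), chr14:16973812-16975578 (3 for PtrNAC127 and 6 for PtrCORONA) and a peak at 14768 to 17592 of scaffold_146 (8 for PtrNAC127 and 2 for PtrCORONA). Other strong pairs ranked further apart, such as chr2:18349130-18354390, the pair with the most distant summits, which ranked 5 for PtrNAC127 and 24 for PtrCORONA. The 5 pairs met a peak in all other 4 lists, and their summits were 1 to 43 bp apart. A large −log10 q went with width here: these PtrNAC127 peaks were 951 to 4613 bp wide, and their fold enrichment was not among the 100 largest in either list save at chr5:24527731-24528913, which ranked 80 by fold enrichment for PtrCORONA.

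Rank differences were small for most pairs and larger by fold enrichment than by −log10 q. When the 627 one-to-one pairs were ranked among themselves, a pair differed between the lists by a median of 19 ranks in −log10 q and of 50 ranks in fold enrichment. Of the 100 best PtrNAC127 pairs, 94 were among the 100 best of PtrCORONA by −log10 q, and 74 by fold enrichment. Among the 10 best by fold enrichment, 2 were shared.

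Some pairs stood much higher in 1 list. At chr6:26441368-26441960 −log10 q was 25.6 for PtrNAC127 and 134.7 for PtrCORONA, rank 502 for PtrNAC127 and 146 for PtrCORONA among the pairs, the largest gap of all. At chr1:49419276-49419778 it was 23.1 for PtrNAC127 and 104.2 for PtrCORONA, and at chr3:13349844-13350381 it was 42.8 for PtrNAC127 and 135.5 for PtrCORONA. All 3 sites ranked higher for PtrCORONA, with summits 69, 13 and 2 bp apart, and were found in all other 4 lists.
The reverse gaps were smaller. At chr11:7839316-7839869 −log10 q was 72.4 for PtrNAC127 and 37.4 for PtrCORONA, rank 288 for PtrNAC127 and 443 for PtrCORONA among the pairs. At chr5:18156579-18157131 the values were 54.8 for PtrNAC127 and 25.0 for PtrCORONA, and at chr9:12133293-12133810 they were 30.3 for PtrNAC127 and 7.61 for PtrCORONA.

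By fold enrichment the lists had different leaders. The first PtrNAC127 peak, chr2:11887103-11887702, had a fold enrichment of 42.3, and its partner, with 33.6, ranked 13 in the PtrCORONA list. The first PtrCORONA peak, chr3:18721967-18722807, had a fold enrichment of 71.9, and its PtrNAC127 partner, with 26.8, ranked 21. That pair stands apart from the band in the plot of pair values, with −log10 q of 93.1 for PtrNAC127 and 300.2 for PtrCORONA. The pair at chr7:6125825-6127380, named above for its width, was high in both lists, with a fold enrichment of 40.6 (rank 2) for PtrNAC127 and 41.6 (rank 4) for PtrCORONA.

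Whether a peak had a partner followed its strength. All 541 strongest PtrNAC127 peaks by −log10 q were paired, and the first unpaired one ranked 542. Among PtrCORONA peaks the 94 strongest were paired and the first unpaired one ranked 95. Of the 681 strongest PtrCORONA peaks, as many as the PtrNAC127 list holds, 589 were paired (86.5%, interval 83.7 to 89.0%).

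At equal −log10 q a PtrNAC127 peak more often had a partner. With −log10 q between 5 and 10, 18 of 39 PtrNAC127 peaks (46.2%, interval 30.1 to 62.8%) and 33 of 331 PtrCORONA peaks (9.97%, interval 6.96 to 13.7%) were paired. Between 10 and 15 the shares were 35 of 54 (64.8%) for PtrNAC127 and 31 of 120 (25.8%) for PtrCORONA. Between 20 and 30 they were 62 of 64 (96.9%) for PtrNAC127 and 59 of 75 (78.7%) for PtrCORONA. Below 5, none of 93 PtrCORONA peaks was paired (interval up to 3.89%), and PtrNAC127 had 3 peaks there, 2 of them paired. The −log10 q depends on the reads left in a library after mapping and filtering, which the sources used here do not give, so equal values need not mean equal signal. The lists also differed in length, so a PtrNAC127 peak had the longer list in which to find a partner.

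**Figure D3:**
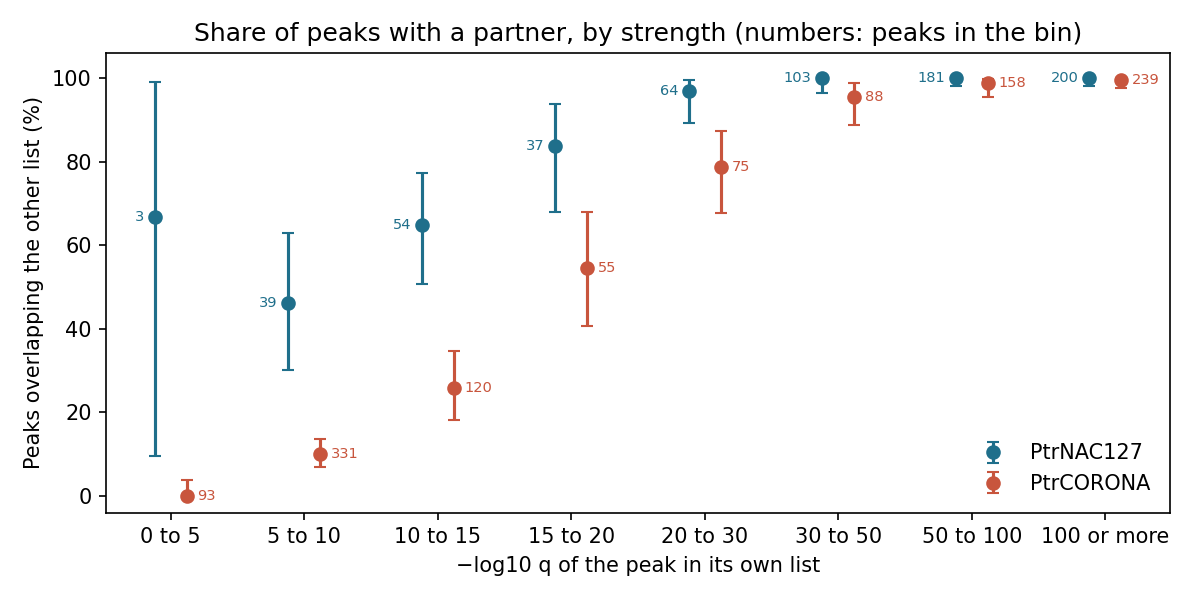
Share of peaks with a partner in the other list (%, y axis) by −log10 q of the peak in its own list (x axis), with exact 95% binomial intervals and the number of peaks in each bin, PtrNAC127 left of PtrCORONA. The PtrNAC127 share was 100% from a −log10 q of 30 on, and the PtrCORONA share was 95.5 to 99.6% there.

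The 49 PtrNAC127 peaks without a PtrCORONA peak were weak, narrow and scattered. Their −log10 q ran from 3.56 to 20.6 and their median width was 302 bp, with 23 of 49 under 300 bp (46.9%, interval 32.5 to 61.7%), against 22 of 632 paired PtrNAC127 peaks (3.48%). The strongest were chr14:374289-374808 (−log10 q 20.6, fold enrichment 13.8) and chr4:20717112-20717636 (20.2 and 12.4), both also in the PtrARF5a list. Next came chr13:7935114-7935612 (18.8 and 10.4), which met no peak of any list, chr1:47329221-47329736 (18.2 and 11.5), also in the PtrC2H2ZF2 and PtrARF5a lists, and chr4:15908184-15908704 (16.4 and 11.4), also in PtrARF5a. None had another unpaired PtrNAC127 peak within 10 kb.

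Of these 49 peaks, 24 met no peak of the other 4 lists (48.98%, interval 34.4 to 63.7%), and 23 met PtrARF5a, an auxin response factor with the longest list of the series. The zinc finger lists and PtrBLH were met by few, 1 for PtrC2H2ZF1, 6 for PtrC2H2ZF2 and 1 for PtrBLH, a BEL-like homeodomain protein. The single peak in 3 other lists was chr19:11171335-11171780, with a −log10 q of 8.13. Paired PtrNAC127 peaks in the same range of −log10 q, 89 in number, met PtrARF5a in 80 cases (89.9%, interval 81.7 to 95.3%) and PtrC2H2ZF1 in 25, and 7 of them met none of the 4 lists. Within this range the unpaired PtrNAC127 peaks were more often in no other list, but strength was not held equal. Of the PtrNAC127 peaks with a −log10 q of 5 to 10, 18 of 39 were paired, and of those at 15 to 20, 31 of 37.

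Of the 528 PtrCORONA peaks without a PtrNAC127 peak, 51 met none of the other 4 lists (9.66%, interval 7.28 to 12.5%), against 8 of 631 paired PtrCORONA peaks (1.27%). PtrARF5a, which nearly all PtrCORONA peaks met, was met by 474 of the unpaired ones (89.8%, interval 86.9 to 92.2%) and by 621 of the paired ones (98.4%, interval 97.1 to 99.2%). The other lists set the groups further apart. PtrC2H2ZF1 was met by 18 unpaired PtrCORONA peaks (3.41%) and by 538 paired ones (85.3%), and PtrBLH by 198 unpaired (37.5%, interval 33.4 to 41.8%) and 535 paired ones (84.8%). PtrARF5a and no further list was met by 276 unpaired PtrCORONA peaks (52.3%) and 51 paired ones (8.08%), and PtrARF5a with PtrBLH alone by 178 unpaired (33.7%) and 10 paired ones (1.58%).

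In the strength range of the unpaired PtrNAC127 peaks these contrasts changed. PtrARF5a was met there by 437 of 480 unpaired PtrCORONA peaks (91.0%, interval 88.1 to 93.4%) and by 87 of 97 paired ones (89.7%, interval 81.9 to 94.9%), shares whose intervals overlap. PtrBLH was met by 180 of 480 unpaired peaks (37.5%, interval 33.2 to 42.0%) and by 22 of 97 paired ones (22.7%, interval 14.8 to 32.3%). PtrC2H2ZF1 was met by 14 of 480 unpaired peaks (2.92%) and by 26 of 97 paired ones (26.8%). Strength was not held equal within this range either. At a −log10 q of 5 to 10, 33 of 331 PtrCORONA peaks were paired, and at 15 to 20, 30 of 55.

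Most unpaired PtrCORONA peaks were short, with a median width of 352 bp, and 54 of 528 reached 500 bp, against 544 of 631 paired PtrCORONA peaks. Apart from a group on chromosome 3, the strongest was chr8:6268804-6269319, which ranked 410 with a −log10 q of 46.0 and had a fold enrichment of 19.2. It was also in the PtrC2H2ZF1, PtrARF5a and PtrBLH lists, and the nearest PtrNAC127 summit was 87524 bp away. It was followed by chr16:1675727-1676243, whose −log10 q was 36.4 and fold enrichment 11.8, in the PtrARF5a and PtrBLH lists.

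The strongest unpaired PtrCORONA peak lay in a group on chromosome 3 that also held weak peaks. Within 7722 bp, at chr3:7359737-7367458, PtrCORONA had 6 peaks, none of which met a peak of any other list. The strongest, chr3:7364076-7364959, ranked 95 by −log10 q, at 166.3, and 2 by fold enrichment, at 48.1. From low to high coordinate the −log10 q values were 61.3, 19.1, 10.8, 57.3, 166.3 and 37.2. The fold enrichments in that order were 21.9, 10.1, 6.58, 17.9, 48.1 and 14.2, and the gaps between neighbouring peaks were 338, 755, 168, 439 and 2011 bp. The peaks covered 4011 bp of the span. The nearest PtrNAC127 peak lay 230.2 kb away, and the nearest PtrCORONA peak outside the group 230.2 kb away. Without the group, the largest −log10 q among the remaining 522 unpaired PtrCORONA peaks was 46.0, and their median was 7.27.

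**Figure D4:**
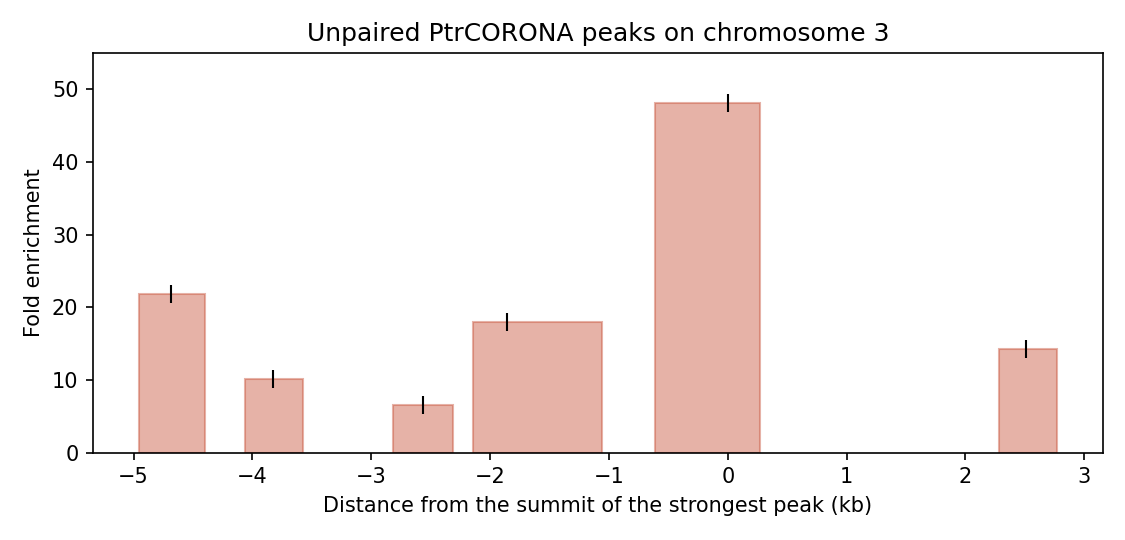
The 6 unpaired PtrCORONA peaks on chromosome 3, each drawn as a bar over its own extent (x axis, distance in kb from the summit of the strongest peak) up to its fold enrichment (y axis), with a black tick at its summit. The peaks stand apart with uncovered gaps between them, and the strongest reaches a fold enrichment of 48.1.

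The chromosome 3 peaks were separate intervals with gaps, spread over a length far beyond a usual peak of these lists. The study's methods give PtrCORONA the identifier Potri.003G050100, whose number names chromosome 3, and another passage gives Potri.001G188800. PtrNAC127 has the identifier Potri.018G068700. Chromosome 18 held 34 PtrNAC127 peaks, of which 31 were paired. The 3 unpaired ones stood apart from each other, with −log10 q of 13.1 to 14.3, and the paired ones were not examined for groups. The place of these genes in this build was not analysed here. Any link between peaks of a TF and the locus of its own gene was not tested.

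Groups of unpaired PtrCORONA peaks were otherwise small. With summits at most 10 kb from the next, 60 of 528 fell into groups, namely the 6 on chromosome 3, 2 groups of 3 and 24 groups of 2, and 468 stood alone. The number in groups depended on the distance and on weak peaks, being 33 of 528 within 5 kb, 110 of 528 within 50 kb, and 6 of 147 within 10 kb when both lists were held to a −log10 q of at least 10. The groups of 3 lay at chr13:14785018-14791573, with fold enrichments of at most 1.57, and at chr17:11636314-11650901, with at most 7.42.

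The group on chromosome 13 belonged to a stretch with very low fold enrichment. Of the 1159 PtrCORONA peaks, 12 had a fold enrichment under 2, none of them was paired, and 7 of the 12 lay between 14753270 and 14869517 on chromosome 13. PtrCORONA had 8 peaks in that stretch and PtrNAC127 none, while the other lists had 9 (PtrC2H2ZF1), 12 (PtrC2H2ZF2), 10 (PtrARF5a) and 16 (PtrBLH). The stretch was bounded by unpaired PtrCORONA peaks and lay inside a single interval between PtrNAC127 peaks. The lack of a PtrNAC127 peak there is therefore tied to how the stretch was chosen. The nearest PtrNAC127 peak was chr13:14873882-14874287, with a fold enrichment of 1.91, the lowest of its list, and it was paired. Of the 12 unpaired PtrCORONA peaks that met all other 4 lists, 9 had a fold enrichment under 2. The exceptions were chr6:13703844-13704345, with 11.7, chr19:6690065-6690707, with 3.63, and chr13:14838766-14839120, with 2.47.

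A peak of both lists and of no other was rare. There were 8 such pairs, on chromosomes 1, 3, 4, 10 (2 pairs), 11, 14 and 18, and all were weak, with a −log10 q of 7.46 to 21.0 for PtrNAC127 and 5.01 to 19.1 for PtrCORONA. Their summits were still close, 0 to 12 bp apart. The strongest was chr10:11438290-11438810, where −log10 q was 21.0 for PtrNAC127 and 19.1 for PtrCORONA, and the fold enrichment 12.2 for PtrNAC127 and 11.8 for PtrCORONA. In chr10:9898517-9899021 the summits coincided, and the PtrNAC127 peak was 505 bp and the PtrCORONA peak 288 bp wide. By contrast, 514 of the 627 one-to-one pairs met all other 4 lists.

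Peaks of each list were sparse along the genome. The distance from a summit to the next of the same list had a median of 186.0 kb for PtrNAC127 and 103.3 kb for PtrCORONA, and a neighbour within 10 kb was found for 70 of 681 PtrNAC127 peaks (10.3%, interval 8.10 to 12.8%) and 149 of 1159 PtrCORONA peaks (12.9%, interval 11.0 to 14.9%). From an unpaired PtrNAC127 peak the nearest PtrCORONA summit was a median of 112 kb away, and at the least 2.07 kb. From an unpaired PtrCORONA peak the nearest PtrNAC127 summit was a median of 201 kb away, and at the least 789 bp. A near miss was therefore uncommon, with 5 of 49 unpaired PtrNAC127 peaks and 16 of 528 unpaired PtrCORONA peaks within 10 kb of the other list.

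Unpaired PtrCORONA peaks were spread over many gaps of the PtrNAC127 list. Of the 617 intervals between neighbouring PtrNAC127 peaks on a chromosome, 375 held no PtrCORONA peak, 125 held 1, 54 held 2 and 63 held 3 or more. The fullest, chr10:13764540-17124145, was 3.36 Mb long and held 12 PtrCORONA peaks, all with a −log10 q of at most 11.5. The longest, chr12:3018638-6586578, was 3.57 Mb long and held 3.

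All 19 chromosomes had peaks of both lists, and PtrCORONA had more on each. There were 1.21 PtrCORONA peaks per PtrNAC127 peak on chromosome 18 and 2.39 on chromosome 3, the extremes. The share of PtrCORONA peaks with a partner ran from 10 of 28 on chromosome 19 (35.7%, interval 18.6 to 55.9%) to 31 of 41 on chromosome 18 (75.6%, interval 59.7 to 87.6%). Those intervals do not overlap, but the 2 chromosomes were picked as the extremes of 19. Every PtrNAC127 peak was paired on chromosome 3 (33 peaks, interval 89.4 to 100%) and chromosome 9 (29 peaks, interval 88.1 to 100%). Both intervals include the 92.8% of the whole list. Chromosome 5 held 9 of the 49 unpaired PtrNAC127 peaks and 52 of all 681 PtrNAC127 peaks (7.64%). These chromosomes, too, were picked as extremes.

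**Figure D5:**
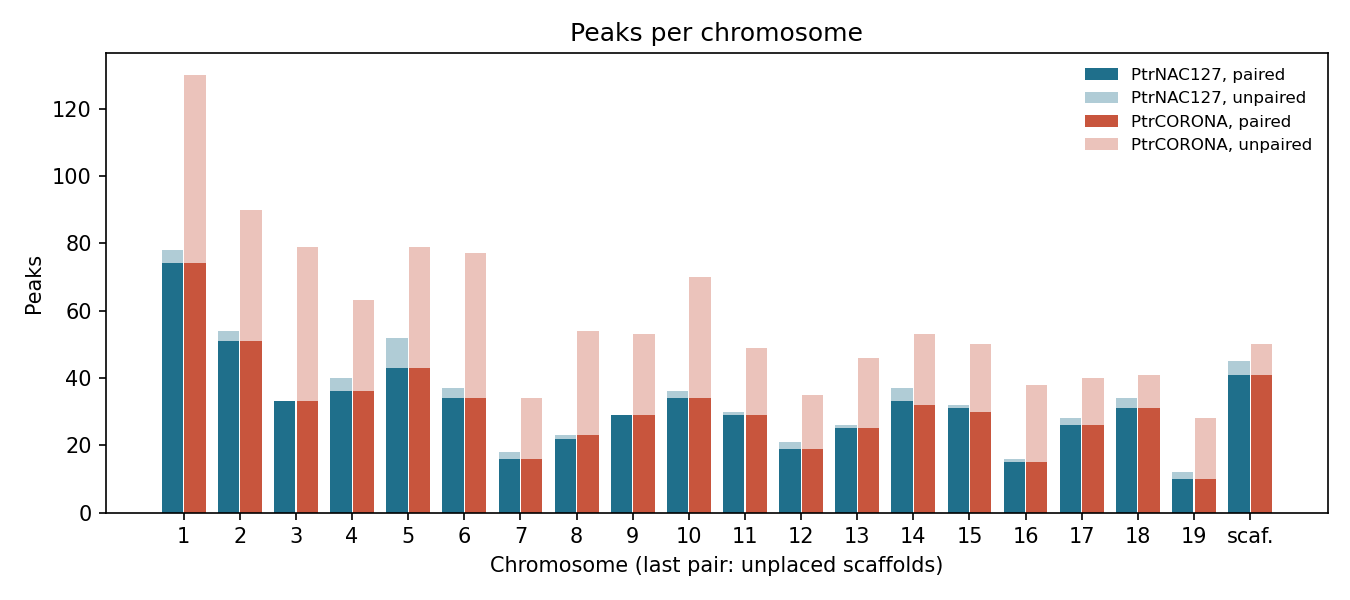
Number of peaks (y axis) on each of the 19 chromosomes and on unplaced scaffolds (x axis, scaf.), PtrNAC127 left of PtrCORONA, with paired peaks in the dark and unpaired peaks in the light part of each bar. The light part is the larger one for PtrCORONA on chromosomes 3, 6, 7, 8, 10, 16 and 19, and small for PtrNAC127 throughout.

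The paired share of PtrCORONA peaks was larger on unplaced scaffolds than on the 19 chromosomes, where 590 of 1109 were paired (53.2%). Strength was not held equal between the 2 places. The scaffolds held 45 PtrNAC127 peaks, of which 41 were paired (91.1%, interval 78.8 to 97.5%). They held 50 PtrCORONA peaks, of which 41 were paired (82.0%, interval 68.6 to 91.4%). Paired peaks on scaffolds made up 6.49% of all paired PtrNAC127 peaks and 6.50% of all paired PtrCORONA peaks, and of the unpaired PtrCORONA peaks 9 of 528 lay there (1.70%, interval 0.782 to 3.21%). Both lists had a peak on 34 of the scaffolds.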

How the data were processed

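ChIP-seq libraries of PtrNAC127 and PtrCORONA, 1 each, were compared through the deposited peak lists. The authors used Trimmomatic to trim reads, Bowtie2 for mapping to the genome of the hybrid, SAMtools to discard duplicates and poorly mapped reads, and MACS2 for peak calling in each library. The submitters' notes name MACS2 version 2.1.0. Each deposited peak has a whole-number score (not used), a fold enrichment ratio over input, and −log10 p-value (not used) and −log10 q-value. The paper gives 1 approximate raw read number for all samples, and the reads left per library after filtering are unknown, so an absent peak is no measure of absent binding.

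Start and summit positions are counted from 1. Peaks sharing at least 1 bp were paired with Python 3.11.15, numpy 2.4.6, pandas 2.3.3 and scipy 1.17.1, and plotted with matplotlib 3.10.9. Ranks used mean ranks for ties. Distances between peaks are between summits, except those from the chromosome 3 group, which run from its edge. Shares have exact 95% Clopper-Pearson intervals. The pairing code was tested on simulated lists. No model was fitted and no p-value computed.

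Named peaks are those with the best mean ranks, the largest rank, summit and width differences, the strongest unpaired peaks of each list, the groups with the most unpaired PtrCORONA peaks and the extreme chromosomes. The peaks of the chromosome 13 stretch, those shared with certain other lists, the leaders by fold enrichment and the fullest and longest intervals were added after their values had been seen. The lists compared and these rules were chosen with earlier results of these data known. Alternatives were other overlap rules, thresholds and distances. Gene features, motifs and peak sequences were not analysed here.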

Additional observations from a re-analysis of the deposited data

How the results depend on the processing

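The 14 results gave 109 values under other settings, of which 92 stayed the same and 17 moved. Only the width difference and the rank correlations could have changed direction, and they did not. A share stayed the same within its counting interval, and a rank correlation within a fixed difference. Counts and medians stayed the same within 1.5 times the value. The PtrNAC127 share with a partner was 89.3% when summits had to lie at most 100 bp apart. The PtrCORONA share was 59.0% with a −log10 q of at least 5 in both lists and 80% with at least 10, where 147 PtrCORONA peaks stayed unpaired. The next settings were chosen after seeing the data. With a fold enrichment of at least 5 in both lists the PtrCORONA share was 59.2%. With the PtrCORONA list cut to its 681 strongest peaks, the shares were 86.6% for PtrNAC127 and 86.5% for PtrCORONA, with 91 PtrNAC127 and 92 PtrCORONA peaks unpaired. The share of PtrCORONA peaks with a partner thus depended on the many weak peaks of that list. The number of peaks with a near neighbour moved with the distance, with 50 PtrNAC127 and 89 PtrCORONA peaks within 5 kb, and 147 and 344 within 50 kb. The median summit distance was 6 bp and the median width difference 4 bp under all 7 alternatives tried for them. The reads left per library after filtering are not given in the sources used here, which limits every statement about an absent peak.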

Other observations

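Many weak peaks shared the same pair of values. In the PtrNAC127 list 127 of 681 peaks, and in the PtrCORONA list 507 of 1159, had a fold enrichment and −log10 q identical to those of another peak of the list. Among unpaired peaks these were 15 of 49 for PtrNAC127 (30.6%) and 339 of 528 for PtrCORONA (64.2%), and among paired peaks 112 of 632 (17.7%) for PtrNAC127 and 168 of 631 (26.6%) for PtrCORONA. Ranks among the weak peaks are therefore coarse.

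A chromosome 5 site had unpaired peaks of both lists side by side. The PtrNAC127 peak chr5:6268025-6268316 (−log10 q 11.1, fold enrichment 8.74) and the PtrCORONA peak chr5:6260521-6261014 (−log10 q 24.4, fold enrichment 14.7) had summits 7273 bp apart. This pair was picked after its values had been seen.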
